A study of Mus musculus with 6 samples.

Results

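The Y RNAs Rny1 and Rny3, the vault RNA Vaultrc5 and the proteins that bind them or build their particles (Trove2, now named Ro60, Ssb, Mvp, Parp4 and Tep1) were examined in keratinocytes captured from mouse skin wounds. These 8 genes were chosen by symbol, after Rny1 had been seen among the largest differences between the groups in these same arrays. Signals on all 6 arrays were available for 6 of the 8, each from 1 probe set naming only that gene, out of 19938 genes named in this way. The only probe set annotated to Parp4 also names Mphosph8, and no probe set is annotated to Tep1, so neither has a value of its own here. Because the contrast between diabetic and normal samples helped to choose the genes, their differences are given with standard errors (SE) as descriptions, with no test.

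Wounds were harvested 3 days after wounding, and keratinocytes at the tip of the advancing epithelial tongue, located by E-cadherin staining, were taken by laser capture from fixed, dehydrated tissue. The 3 diabetic samples came from mice made diabetic by a diet rich in fat and fructose, begun at 8 weeks of age and kept up for 16 weeks. The 3 normal samples came from mice on a control diet of equal length. Strain, sex and age at wounding were not given in the labels used here. The labels do not say that each array came from its own mouse, so the spread between arrays may be partly technical. All levels are log2 probe set signals, and all differences are diabetic minus normal on that scale.

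Y RNAs are short noncoding RNAs made by RNA polymerase III and folded into a stem with an internal loop. The ring-shaped Ro protein (Ro60) grips the stem, the La protein (Ssb) binds the uridine tail that polymerase III leaves at the 3′ end, and the resulting Ro particles are known for RNA quality control and as autoantigens in lupus and Sjögren syndrome. Vaults are large barrel-shaped particles of the cytoplasm. Their shell is built from the major vault protein (Mvp), and they also hold the poly(ADP-ribose) polymerase Parp4, the RNA-binding protein Tep1, which is shared with telomerase, and vault RNA, another polymerase III transcript. In the mouse gene table of assembly GRCm38.p6, Rny3 and Rny1 lie near each other with 1 ribosomal protein pseudogene between them, and Pdia4 is the next gene beyond Rny1.

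The 3 small RNAs were above background, Rny1 less clearly than the others, while 2 of the 3 measured protein genes were not. Background was set on each array at the 95th percentile of 1205 probe sets for odorant and pheromone receptors (the Olfr and Vmnr families), taken as silent in skin, and lay between 1.98 and 2.11. Rny1, Rny3, Vaultrc5 and Mvp exceeded this limit on all 6 arrays, and Ro60 and Ssb exceeded it on none. At a stricter limit, the 99th percentile, Rny1 lay under it in diabetic replicate 2 and normal replicates 1 and 3 (limits 2.80, 2.74 and 2.80). Mvp lay under this stricter limit in diabetic replicates 1 and 3 and normal replicates 1 and 2 (limits 2.71, 3.10, 2.74 and 2.90). Of all 21789 single-gene probe sets, 17.5% were above the 95th percentile limit on every array and 51.9% on none. Detected genes made up 29.9% to 36.9% of all genes on the diabetic arrays and 27.8% to 29.1% on the normal arrays. Few markers of the labelled cell type cleared the limit on all arrays, namely 2 of 9 genes of basal keratinocytes, 2 of 6 of the suprabasal layers and 1 of 11 of the wound edge.

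Rny1, the Y1 RNA, was at 6.71, 2.76 and 5.16 in diabetic replicates 1, 2 and 3, against 2.37, 3.49 and 2.76 in normal replicates 1, 2 and 3. Diabetic replicates 1 and 3 lay above every normal array, but diabetic replicate 2 sat in the middle of the normal range, so the groups overlapped. The means were 4.88 ± 1.99 in diabetic and 2.87 ± 0.57 in normal samples (SD, n = 3 each). The difference was 2.01 (SE 0.71), or 4.02-fold in signal. This is the value that drew attention to the family, and only 2 of 21789 probe sets had a larger difference in size. It came to 1.09 without diabetic replicate 1 and to 3.06 without diabetic replicate 2. In captured tissue, fewer cells of a type and less RNA per cell cannot be told apart.

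Rny3, the Y3 RNA, had no comparable separation. Its signal was 7.10, 5.47 and 5.31 in the diabetic samples and 6.33, 6.25 and 4.74 in the normal samples. Diabetic replicate 1 was the highest array and normal replicate 3 the lowest. Between them, normal replicates 1 and 2 lay above diabetic replicates 2 and 3, opposite to the sign of the mean difference. The difference was 0.19 (SE 0.48), which turned to -0.38 without diabetic replicate 1 and to -0.33 without normal replicate 3. The gap between the Y RNAs, Rny1 minus Rny3, was -0.39, -2.70 and -0.15 in diabetic samples and -3.96, -2.76 and -1.99 in normal samples. The levels of different probe sets cannot be compared directly, but this gap moved between arrays, so the signals of the neighbouring genes did not keep 1 ratio. Diabetic replicate 2 again lay inside the normal range.

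Vaultrc5, the vault RNA, was nearly as variable as Rny1. Normal replicate 1 was the lowest array for both, but the highest was normal replicate 3 for Vaultrc5 and diabetic replicate 1 for Rny1. It was at 5.70, 5.12 and 3.80 in diabetic samples and at 3.01, 5.02 and 6.28 in normal samples. Both the lowest and the highest array were normal ones, and the diabetic values fell between them. The difference of 0.10 (SE 0.67) became -0.31 without diabetic replicate 1, -0.02 without diabetic replicate 2 and -0.78 without normal replicate 1, and reached 0.64 without diabetic replicate 3 and 0.86 without normal replicate 3. No direction can be read from these 6 arrays.

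**Figure D1:**
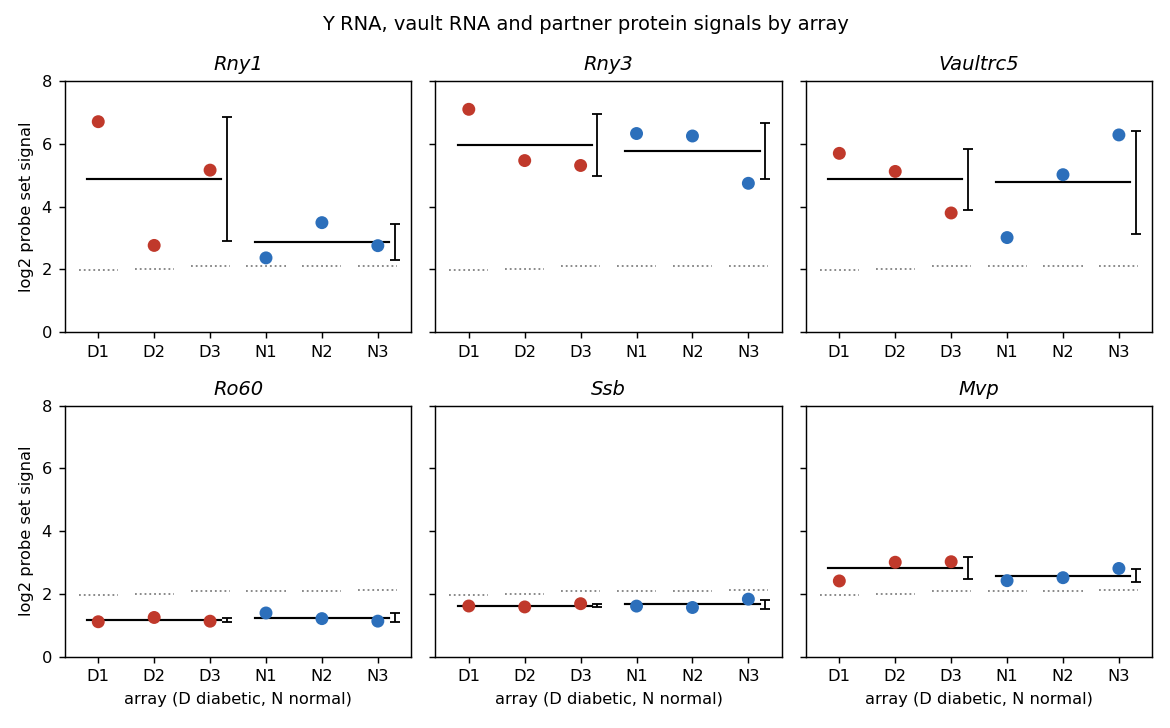
Log2 probe set signal (y axis) of the 6 measured genes on each array (x axis), diabetic replicates D1 to D3 in red and normal replicates N1 to N3 in blue. Horizontal lines are group means, bars are 1 SD (n = 3) and dotted lines mark each array's background limit; the 3 RNAs spread widely within both groups, Ro60 and Ssb lie under the limit and Mvp lies just above it.

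Neither the Ro nor the La protein gene was detected above background. Ro60, the core Ro protein, was at 1.12, 1.25 and 1.13 in diabetic samples and 1.40, 1.22 and 1.14 in normal samples, and the difference was -0.08 (SE 0.10). Ssb, the La protein, was at 1.62, 1.59 and 1.69 in diabetic samples and 1.62, 1.57 and 1.84 in normal samples, and the difference was -0.04 (SE 0.11). Signals under the limit do not bound a difference in RNA, and the sign for Ssb turned to 0.02 when arrays were centred on the receptor probe sets. The groups overlapped for both genes.

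Mvp, the shell protein of the vault, was the one measured protein gene with signal above background, though not on every array at the stricter limit. It measured 2.42, 3.01 and 3.03 in diabetic samples and 2.43, 2.52 and 2.81 in normal samples. Diabetic replicates 2 and 3 were the highest arrays, and diabetic replicate 1 the lowest of all 6. The difference was 0.23 (SE 0.18), and leaving out diabetic replicate 1 or 3 gave 0.43 or 0.13. The probe set shared by Parp4 and Mphosph8 was at 1.67, 1.57 and 1.68 in diabetic samples and at 1.63, 1.78 and 1.66 in normal samples. All of these values lie under the limit, and the probe set was left out of the fit because it cannot be given to 1 gene.

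Over the 6 genes, 4 were higher and 2 lower in diabetic samples, and their median difference was 0.14, while 48.4% of all probe sets were higher and their median difference was -0.01. None of the 6 had an adjusted p under 0.05 in limma with Benjamini-Hochberg adjustment, nor did any of the 21789 probe sets (0%), the smallest adjusted p being 0.356, while 1219 had an unadjusted p under 0.05. Counting an unadjusted p under 0.05 together with a 1.5-fold or larger difference, the rule was met by 1 of the 6, Rny1, and by 0.303% of all probe sets. The groups failed to overlap for 0 of the 6 and for 10.7% of all probe sets. As Rny1 was chosen by this contrast, its place in these counts is a description.

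**Figure D2:**
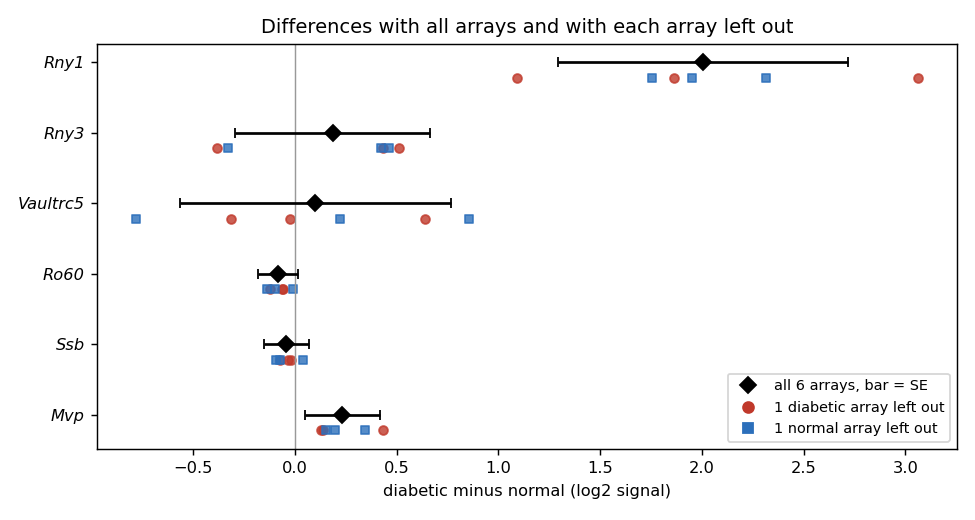
Difference in log2 signal, diabetic minus normal (x axis), for the 6 measured genes. Black diamonds use all 6 arrays with bars of 1 SE, red circles leave out 1 diabetic array and blue squares 1 normal array; Rny1 runs from 1.09 to 3.06, whereas Rny3 and Vaultrc5 fall on both sides of 0.

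The 3 RNAs were among the most variable features of the arrays. The spread between replicates is computed within groups, but for Rny1 it is not independent of its choice. Its SD was 1.99 in diabetic and 0.57 in normal samples, and the same diabetic values made its difference. The within-group SD was 1.46 for Rny1, 1.35 for Vaultrc5 and 0.94 for Rny3. Among all 21789 probe sets these ranked 3, 6 and 23 from the highest, and the median of all was 0.15. Ranks 1, 2, 4 and 5 belonged to Olfr478, Rps12, the small nucleolar RNA gene Snord42a and the chaperone gene Hspa8, which are named after their values were seen. Probe sets of like signal were less variable. Of 379 other probe sets within 0.5 log2 units of Rny1 in mean signal, 0 had a higher SD, and of 86 within 0.5 of Vaultrc5, 0 did. Of 18 near Rny3, 1 was higher. By contrast, Mvp had an SD of 0.29, and Ro60 and Ssb each 0.11, below the median of all probe sets.

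**Figure D3:**
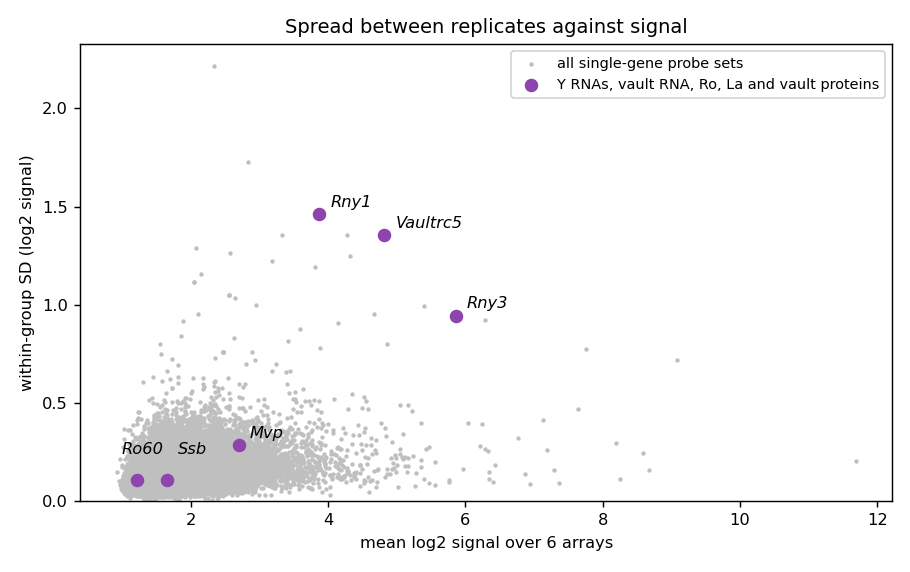
Within-group SD of the log2 signal (y axis) against the mean log2 signal over 6 arrays (x axis) for every single-gene probe set in grey, with the 6 measured genes in purple. Rny1, Vaultrc5 and Rny3 stand above nearly all probe sets of like signal, with SDs of 1.46, 1.35 and 0.94, and Ro60 and Ssb lie in the dim cloud.

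No relation between the RNAs passed a test. Across the 6 arrays, Rny1 and Rny3 had a Pearson r of 0.50 (Spearman's rho 0.26), and 0.15 without the 2 arrays farthest from the median of Rny1. By exact permutation tests, two-sided, p was 0.354 for r and 0.658 for rho, with adjusted values of 0.851 and 1.0 over the 6 relations among Rny1, Rny3, Vaultrc5 and Mvp. Vaultrc5 had an r of 0.18 with Rny1, -0.17 with Rny3 and 0.08 with Mvp, the protein whose particle it joins. The strongest relation was between Rny3 and Mvp, with r of -0.81 and rho of -0.83 (exact permutation p of 0.0681 and 0.0583, adjusted 0.408 and 0.35). It was -0.97 with values centred within each group and -0.99 without the 2 arrays farthest from the median of Rny3. None of the 6 relations passed adjustment.

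The genes whose pattern over the 6 arrays was most like that of each RNA were taken from 549 genes above the limit on at least 3 arrays and with an SD of at least 0.3. Ranking so many genes over so few arrays yields high values by construction, and no p is given. Nearest to Rny1 were Khsrp, an RNA-binding protein of the KH type, with r of 0.97, then Nsmce1 (0.95), Wfdc18 (0.94), Ybx1, a cold-shock-domain RNA-binding protein (0.94), and Clec2h (0.93). Khsrp was at 2.75, 2.07 and 2.62 in diabetic samples and 1.98, 2.13 and 2.15 in normal samples, low in diabetic replicate 2 as Rny1 was. For Rny3 the nearest were the kinase gene Prkcz (0.95), the mitochondrial peroxiredoxin gene Prdx3 (0.91), Snord42a (0.83), Scube1 (0.82) and Nudt16 (0.80). For Vaultrc5 they were the ribosomal protein gene Rpl10 (0.97), the hexokinase gene Hk1 (0.94), Nob1, a nuclease of ribosome maturation (0.94), Rnf141 (0.94) and Gas8 (0.92). The 3 sets of 5 shared no gene.

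Other small noncoding RNAs, only part of them polymerase III products, were listed beside the Y and vault RNAs. Of 22 listed, 8 were measured: 7 were higher and 1 lower in diabetic samples, and the median difference was 0.54. At limma's unadjusted p under 0.05, 4 were higher and 1 lower, against 2.61% and 2.9% of all 19938 genes, and 0 passed adjustment. Some of these genes were known from earlier work on these arrays to differ, so the count is no independent evidence. Rn7sk, the 7SK RNA that restrains transcription elongation, was at 8.02, 7.78 and 6.12 in diabetic samples and 4.94, 6.15 and 4.66 in normal samples. It differed by 2.06 (SE 0.47, adjusted p 0.775 in limma), and its groups just overlapped, normal replicate 2 lying just above diabetic replicate 3. A second, dimmer Rn7sk probe set was at 6.79, 4.12 and 5.47 in diabetic samples and 3.76, 4.04 and 3.80 in normal samples. That probe set differed by 1.60 (SE 0.48) with no overlap, as for 10.7% of all probe sets.

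Snord118, the U8 small nucleolar RNA, had values of 4.52, 1.38 and 3.05 in diabetic samples against 1.21, 0.99 and 1.17 in normal samples. Its diabetic arrays stood in the order seen for Rny1, replicate 1 highest and replicate 2 lowest. It was above background on 2 diabetic and 0 normal arrays, so its diabetic mean of 2.98 was at least 1.84-fold above the normal arrays' limit in signal. The fitted difference had an adjusted p of 0.775 in limma. Dropping the lowest diabetic array, replicate 2, brought the limma adjusted p to 0.0429, but dropping the highest, replicate 1, brought it to 0.935. Both checks of the small RNAs were added after the data were seen, and the normal arrays remained at background, so the low value is no independent evidence. Rmrp, the RNA of RNase MRP, was at 6.39, 4.26 and 3.06 in diabetic samples and between 2.99 and 3.15 in normal samples, so diabetic replicate 1 carried much of its difference of 1.52, which was 0.61 without it. The telomerase RNA gene Terc averaged 2.18 in diabetic and 1.78 in normal samples and was above background on 3 diabetic and 0 normal arrays, at least 1.06-fold higher in signal. Rpph1, the RNase P RNA, differed by 0.68 (SE 0.40) with overlapping groups. Rnu6, the U6 spliceosomal RNA, ran the other way, at 0.88, 0.99 and 0.89 in diabetic samples and 1.39, 2.23 and 1.47 in normal samples. Only normal replicate 2 exceeded background, so no fold is given. For 7 of the 8 RNAs diabetic replicate 1 was the highest of the diabetic arrays, as it was for Rny1, Rny3 and Vaultrc5. The 7 include Rnu5g, above background on no array, and Terc, whose diabetic arrays span only 0.09. The share of all genes with that array highest is not given here, so the count is a description. Without diabetic replicate 1 the count at an unadjusted p under 0.05 was 3 higher and 1 lower, where 2.95% and 2.06% of all genes were. The within-group SD of the 8 had a median of 0.55, from 0.16 to 1.19.

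**Figure D4:**
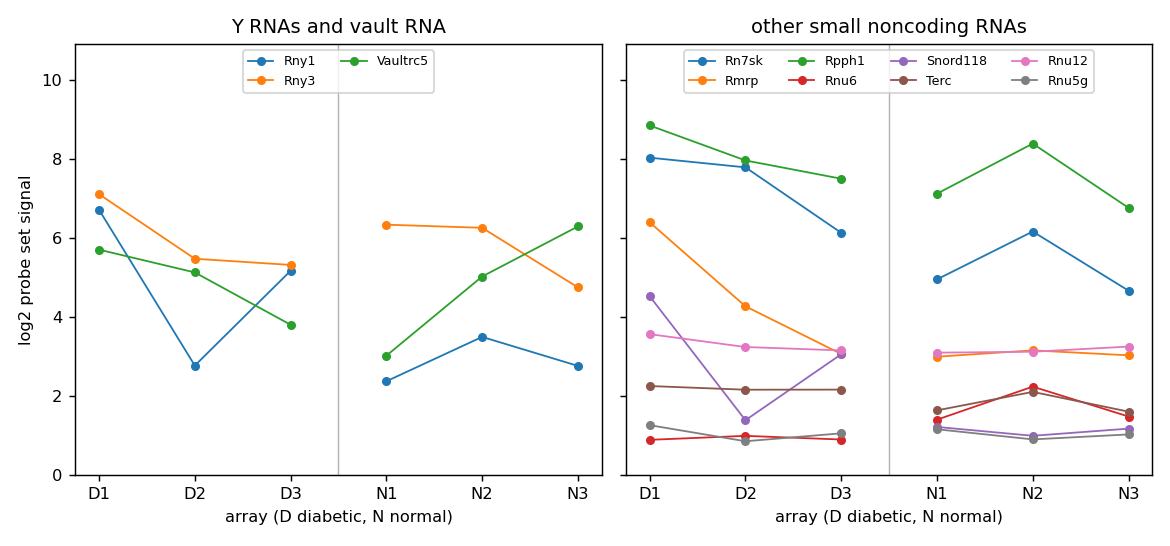
Log2 probe set signal (y axis) on each array (x axis, diabetic replicates D1 to D3, then normal replicates N1 to N3) for the Y and vault RNAs on the left and 8 other small noncoding RNAs on the right. Lines join the arrays of a group for 1 RNA and imply no order; D1 is the highest diabetic array for all RNAs except Rnu6, whereas the normal arrays rank differently from RNA to RNA.

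The protein machinery around these RNAs showed smaller differences, but many of its genes lay at background. Above the limit on no array were 11 of 28 polymerase III genes and 14 of 24 Y RNA binding or processing proteins. The same held for 10 of 14 PARP family and 10 of 16 RNA sensing genes, but only 2 of 6 La-related proteins and 2 of 8 vault partners. For genes at background, a small difference in signal does not bound a difference in RNA. Of 28 measured genes for RNA polymerase III and its factors, 20 were higher and 8 lower, and their median difference was 0.03. At an unadjusted p under 0.05 in limma, 2 were higher and 0 lower, against 2.61% and 2.9% of all genes. The 2 were Polr3d, a polymerase subunit, by 0.52 (SE 0.16) and the largest subunit gene Polr3a. Polr3a was above background on 1 diabetic and 0 normal arrays, with means of 1.97 and 1.69 near the limit, so no fold is given. Polr3d was at 2.89, 2.79 and 3.04 in diabetic samples and 2.05, 2.54 and 2.57 in normal samples, with no overlap, as for 10.7% of all probe sets. The brightest others, Polr3gl and Crcp, differed by 0.11 and 0.30. In this list 0 passed adjustment (smallest adjusted p 0.775 in limma).

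Of 24 measured proteins that bind or process Y RNAs, 8 were higher and 16 lower, with 2 higher at an unadjusted p under 0.05. The 2 were Ybx1, by 0.66 (SE 0.21), and Puf60, a splicing factor found in Ro particles. Puf60 averaged 2.25 in diabetic and 1.94 in normal samples and was above background on 3 diabetic and 0 normal arrays, at least 1.10-fold higher in signal. Ybx1 had diabetic values of 3.86, 2.97 and 3.18 and normal values of 2.61, 2.88 and 2.51, all diabetic arrays above all normal ones. The groups failed to overlap for 10.7% of all probe sets. The polyadenylation factor genes Sympk and Cpsf1, the brightest others, differed by -0.06 and 0.06. Among the 6 La-related proteins 4 were higher and 2 lower, none with an unadjusted p under 0.05. Larp4, a stabilizer of messenger RNA, differed by 0.29 (SE 0.16) and Larp1, which binds messages of the translation machinery, by 0.05 (SE 0.14).

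Vault partners were split, with 4 higher and 4 lower of 8. At an unadjusted p under 0.05 in limma, 2 were higher, where 2.61% of all genes were. The 2 were Ybx1 and Terc, given above, Terc with its normal arrays at background. The autophagy receptor gene Sqstm1 differed by 0.01 and the splicing factor gene Srsf2 by -0.16. Of 14 other PARP family genes 4 were higher and 10 lower, and 1 was lower at an unadjusted p under 0.05, as were 2.9% of all genes. That was Parp10, a mono-ADP-ribosyltransferase, at 2.03, 1.79 and 2.11 in diabetic samples and 2.36, 2.39 and 2.24 in normal samples, differing by -0.35 (SE 0.13). Parp11 and Parp3 differed by -0.05 and -0.13. RNA sensing and interferon genes, listed because Ro particles are autoantigens, had 6 higher and 10 lower of 16, with 0 in either direction at an unadjusted p under 0.05, and Irf3 and Irf5 differed by 0.21 and 0.14. In each of these lists 0 passed adjustment.

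Named genes beside the small RNAs varied far less, but most of them lay near or under the background limit. Pdia4, a chaperone of the endoplasmic reticulum beside Rny1, differed by -0.08 in both of its probe sets, with values from 1.51 to 1.81 and from 2.10 to 2.26 in diabetic samples, and from 1.68 to 1.85 and from 2.20 to 2.27 in normal samples. The dimmer Pdia4 probe set was under the limit on all arrays. Zmat2, the gene before Vaultrc5, ranged from 2.32 to 2.43 in diabetic samples and from 2.24 to 2.49 in normal samples. The pseudogene Gm6756, the next gene after Vaultrc5, was above the limit on all arrays. It ranged from 2.72 to 3.03 in diabetic samples and from 2.66 to 3.11 in normal samples. Hars2, beyond Zmat2, was above the limit on no array. Farther out, Zfp786 near Rny1 and Hars near Vaultrc5 had within-group SDs of 0.29 and 0.26. Both exceeded the limit on 2 diabetic arrays and 1 normal array. Hars, Zmat2 and Zfp786, the last of them near Rny1, were each lowest in normal replicate 1 and highest in normal replicate 3, as Vaultrc5 was.

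Other signals moved with the groups. The summed log2 signal of 19 measured cytosolic ribosomal protein genes, kept as a sign of RNA quality, was 62.5 to 63.4 in diabetic and 55.3 to 57.9 in normal samples, with 13 of the 19 higher and 13 above background on all arrays. All 9 skeletal muscle markers were higher, with sums of 21.5 to 23.6 in diabetic and 20.1 to 21.5 in normal samples, and 4 were above background on all arrays. The ribosomal protein sums of diabetic replicates 1, 2 and 3 lay close together, at 62.5, 63.4 and 62.8. Neutrophil markers ran lower, with 6 of 8 lower and sums of 13.2 to 13.8 in diabetic and 14.2 to 14.3 in normal samples, 4 of them under the limit on all arrays. No macrophage marker of 7 exceeded background on any array. The part of RNA quality and other cells in the Rny1 difference was not tested.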

How the data were processed

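The authors deposited log2 signals of 35556 probe sets on 6 arrays. The base was taken from the values. Partek was used, per the submitters' processing notes. Its version, the background correction, normalization, summarization and build were not given in the sources used here. Per the labels' protocols, RNA from fixed tissue was labelled with a kit for picogram inputs. The number of arrays limits precision.

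An annotation table named 1 gene for 21789 probe sets and several for 1621, and 12146 stayed unnamed. Symbols were updated by gene ID for 21698. Groups came from the titles. Single-gene probe sets were fitted with limma 3.58.1 in R 4.3.3 (lmFit, eBayes with an intensity trend, group as the only term) with Benjamini-Hochberg adjustment over all of them. Genes with several probe sets were represented in lists by the brightest. The fit was tested on simulated data. No sequences are printed. The members and lists were chosen with earlier results of these data known. Named list genes were up to 4 with an unadjusted p under 0.05 and the 2 brightest others. Likeness was Pearson's r, naming 5 genes per RNA and leaving out predicted genes.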

Additional observations from a re-analysis of the deposited data

How the results depend on the processing

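Rny1, Ro60 and Mvp kept their direction under all alternatives run, and each member's difference moved by less than its within-group SD. Ssb turned to 0.02 with arrays centred on the receptor probe sets and to 0.04 without normal replicate 3. With single arrays left out, differences ran from 1.09 to 3.06 for Rny1, -0.38 to 0.51 for Rny3, -0.78 to 0.86 for Vaultrc5, -0.14 to -0.01 for Ro60, -0.09 to 0.04 for Ssb and 0.13 to 0.43 for Mvp. The number of probe sets with an adjusted p under 0.05 was 0 to 3 with single arrays left out, 3 without diabetic replicate 2, 1 without diabetic replicate 3 and 0 without any other. An unadjusted p under 0.05 together with a 1.5-fold or larger difference was seen for 66 probe sets, 51 higher and 15 lower, and by 70 to 124 with single arrays left out. The split was 77 and 6 with arrays centred on the receptor probe sets, 42 and 4 among probe sets above the limit on at least 3 arrays, and 46 and 37 without normal replicate 1. With every probe set in the table, unnamed ones included, 1971 had an unadjusted p under 0.05 and 590 that fold besides; among those above the limit on at least 3 arrays, 402 did, fewer being tested. A limit at the 99th percentile of the receptor probe sets left 2 members above it on all arrays, Rny3 and Vaultrc5. The genes most like an RNA depended on the measure: of 5, Spearman's rho shared 1 for Rny1, 3 for Rny3 and 3 for Vaultrc5, and centring within groups shared 2, 3 and 1.

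The replicate numbers are shared between groups but did not pair the arrays: same-numbered arrays correlated at -0.03, 0.00 and 0.01 in their deviations. A replicate block gave 0 probe sets with an adjusted p under 0.05, 1242 with an unadjusted p under 0.05 and 70 with the fold besides. Other choices were added after the data were seen, leaving diabetic replicate 1 or 2 out of the small RNA count, which gave 3 higher and 1 lower of 8 (2.95% and 2.06% of all genes) and 4 higher and 1 lower (2.13% and 2.37%).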
